A study of Mus musculus with 2 samples.

Results

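The chemokine genes reported for osteoblasts were examined in ultraviolet-killed osteoblasts of young and old mice: Ccl2, Ccl5, Ccl7, Cxcl1, Cxcl5, Cxcl10, Cxcl12, Cxcl14, Cxcl16 and Cx3cl1. These 10 genes of the 55487 in the deposited expression table were chosen by name, with earlier results of these data known. Each symbol matched an identifier in the GENCODE M21 annotation of mouse GRCm38. There was 1 library for young mice, with the treatment labelled day 0, and 1 for old mice, with the treatment labelled day 5. The treatment protocol is given as none, and the meaning of the day is not stated. Age and day therefore cannot be told apart. The labels give no strain, sex or age in months, and do not say how many animals stand behind a library. The same preparation is described for both groups. Bone fragments were placed in culture, their adherent cells were passaged 3 times into marrow mesenchymal stem cells, 3 days of osteogenic medium followed, and 0.5 h of ultraviolet light then killed the cells, more than 90% of which stained with Trypan Blue.

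Chemokines are small secreted proteins that guide the movement of cells through G-protein-coupled receptors. They are sorted by the spacing of their first conserved cysteines into CC, CXC and CX3C types. In bone, stromal cells and osteoblasts make Cxcl12, which holds haematopoietic stem cells in the marrow, while Ccl2 and Ccl7 draw monocytes out of it. Cx3cl1 (fractalkine) is also known as a find-me signal that dying cells release to attract phagocytes.

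The coding stretches that give each chemokine its class are shown because the results are grouped in part by it. Each line gives 30 coding bases, 5′ to 3′ on the mRNA strand, from the GENCODE M21 transcripts, with the codons of the first conserved cysteines in capitals. In Cxcl1, Cxcl5 and their neighbour Ppbp the capitals also cover the glutamate, leucine and arginine codons just before, the ELR motif that marks neutrophil-attracting CXC chemokines. All stretches lie in exon 2, apart from that of Cxcl14, which crosses from exon 1 into exon 2.
Ccl2, CC, chr11:82036497-82036526, plus strand: ccactcaccTGCTGCtactcattcaccagc
Ccl7, CC, chr11:82046529-82046558, plus strand: gcatccacaTGCTGCtatgtcaagaaacaa
Ccl5, CC, chr11:83529227-83529256, minus strand: accactcccTGCTGCtttgcctacctctcc
Cxcl1, CXC with ELR, chr5:90891487-90891516, plus strand: GAGCTGCGCTGTcagTGCctgcagaccatg
Cxcl5, CXC with ELR, chr5:90759718-90759747, plus strand: GAGCTGCGTTGTgttTGCttaaccgtaact
Ppbp, CXC with ELR, chr5:90769076-90769105, plus strand: GAACTGCGCTGCagaTGTacgaataccatc
Cxcl10, CXC, chr5:92348169-92348198, minus strand: acggtccgcTGCaacTGCatccatatcgat
Cxcl12, CXC, chr6:117171499-117171528, plus strand: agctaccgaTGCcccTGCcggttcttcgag
Cxcl14, CXC, chr13:56295903-56296110, minus strand: gggtccaagTGTaagTGTtcccggaagggg
Cxcl16, CXC, chr11:70459115-70459144, minus strand: gctggaagtTGTtctTGTgatcgtaccatt
Cx3cl1, cysteines set apart by 3 residues, chr8:94778042-94778071, plus strand: atgacgaaaTGCgaaatcatgTGCgacaag

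Values are FPKM, fragments scaled to gene length and library total, and the reads behind them were recovered from the steps in the file. The young library held 16333396 reads and the old 18114336. With 1 library per age there is no replicate error and no test, so every difference compares these libraries and not the ages. Square brackets hold 95% counting intervals, exact Poisson for a level and Clopper-Pearson for a ratio of old over young FPKM, which reflect read counting alone. A log2 ratio here is that of FPKM + 1, a scale that understates the differences of low genes. A gene was measured when its mean over both libraries reached 1 FPKM, and higher or lower means a difference of 2-fold or more on that log2 scale.

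Of the 10 chemokine genes, 7 were measured, and 4 of these were 2-fold higher or more in old cells: Ccl2, Ccl7, Ccl5 and Cxcl5. None was 2-fold lower. Over all 12561 measured genes, 1.97% were 2-fold higher and 0.868% 2-fold lower. At 1.5-fold, Cxcl12 and Cx3cl1 joined them to make 6 of 7 higher and none lower, against 5.52% and 4.47% of all measured genes. The counting interval of the ratio began above 2 for the same 4 genes, against 1.42% of the 12214 measured genes with whole reads. The median log2 ratio was 1.69 over the 7 measured genes and 0.78 over all 10, beside -0.07 over all measured genes. Cxcl5 counted as measured only through the old library, where it is high, and it is part of each of these counts and medians. The 10 genes were chosen with earlier results of these data known, so the shares beside them are a description and no test.

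**Figure D1:**
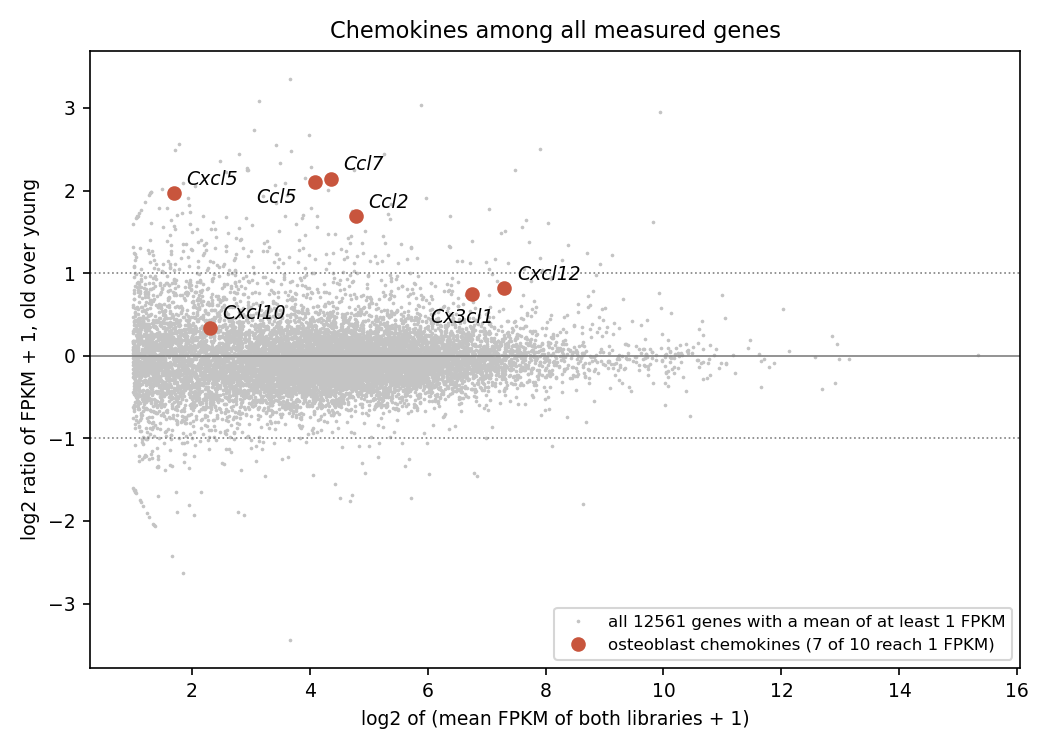
Each grey point is 1 of the 12561 measured genes, with the log2 of the mean FPKM + 1 on the horizontal axis and the log2 of old over young FPKM + 1 on the vertical axis; dotted lines mark 2-fold and red points are the 7 measured chemokines. All 7 lie above 0, with Ccl7, Ccl5, Cxcl5 and Ccl2 above the upper dotted line and Cxcl10 lowest at 0.34.

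The CC chemokines that attract monocytes were each several times higher in old cells. Ccl2 (ENSMUSG00000035385, chromosome 11, 82035571 to 82037453, GRCm38), the main ligand of the monocyte receptor Ccr2, was at 12.1 FPKM in young and 41.2 FPKM in old cells, on 189 and 713 reads. Its ratio was 3.40 [2.89 to 4.02], with a log2 ratio of 1.69 that ranked 65 of 12561. Ccl7 (ENSMUSG00000035373, chromosome 11, 82045712 to 82047525), which also acts on Ccr2, was at 6.57 FPKM in young and 32.5 FPKM in old cells, on 86 and 471 reads. Its ratio was 4.94 [3.92 to 6.29], with a log2 ratio of 2.14 that ranked 24, and the interval of its ratio overlapped that of Ccl2. The level of Ccl2 over that of Ccl7 was 1.84 in young and 1.27 in old cells. Ccl5 (ENSMUSG00000035042, chromosome 11, 83525778 to 83530518), or RANTES, which draws T cells and monocytes, was at 5.41 FPKM in young and 26.6 FPKM in old cells. It rested on 53 and 289 reads, and its ratio of 4.92 [3.66 to 6.72] was close to that of Ccl7.

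The neutrophil-attracting genes were low in both libraries and differed in how well they could be measured. Cxcl5 (ENSMUSG00000029371, chromosome 5, 90759360 to 90761624), a ligand of Cxcr2, was at 0.321 FPKM in young and 4.17 FPKM in old cells. With 9 and 130 reads, it had the highest ratio of the 9 genes with reads, 13.0, and a wide interval of 6.65 to 29.1. It reached 1 FPKM in old cells alone, so the old library decided whether it was measured at all. Its log2 ratio was 1.97, and 0.79 with 5 in place of 1 added to FPKM, which is under 2-fold. Cxcl1 (ENSMUSG00000029380), another Cxcr2 ligand on the same chromosome, had 4 and 14 reads, or 0.173 and 0.547 FPKM. It was not measured by the rule above, and its ratio of 3.16 [0.991 to 13.2] was not separable from 1 at this depth.

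Cxcl10 (ENSMUSG00000034855, chromosome 5, 92346638 to 92348889), the interferon-inducible ligand of Cxcr3, differed least among the 7 measured chemokines. It was at 3.37 FPKM [2.62 to 4.26] in young and 4.53 FPKM [3.70 to 5.50] in old cells, on 69 and 103 reads. The ratio was 1.35 [0.983 to 1.85], so that a difference was not detectable at this depth. Cxcl10 shares 5.9% of its exon bases with Art3, and no source states that strand was used in counting.

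The constitutive and the membrane-bound chemokines supplied most of the chemokine mRNA. Cxcl12 (ENSMUSG00000061353, chromosome 6, 117168535 to 117181367), the ligand of Cxcr4, was at 113 FPKM in young and 201 FPKM in old cells, on 6258 and 12309 reads. Its ratio of 1.77 [1.72 to 1.83] has the narrowest interval of the 9 genes with reads. Cx3cl1 (ENSMUSG00000031778, chromosome 8, 94772009 to 94782427), which is anchored in the membrane and released by cleavage, was at 79.3 FPKM in young and 134 FPKM in old cells, on 1261 and 2358 reads. Its ratio was 1.69 [1.57 to 1.81], an interval that overlaps that of Cxcl12. Both intervals lie wholly below those of Ccl2, Ccl7 and Ccl5. Cxcl16 (ENSMUSG00000018920), the other membrane-bound chemokine and a ligand of Cxcr6, was not measured, at 0.490 and 1.12 FPKM on 15 and 38 reads (ratio 2.28 [1.23 to 4.47]). Zmynd15 covers 18.3% of its exon bases. Cxcl14 (ENSMUSG00000021508), a chemokine of skin and other epithelia, had 0 reads in each library. The 3 reads that a count of 0 allows would be 0.112 FPKM in young and 0.101 FPKM in old cells, and the upper ends of its 95% Poisson intervals were 0.137 and 0.124 FPKM.

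**Figure D2:**
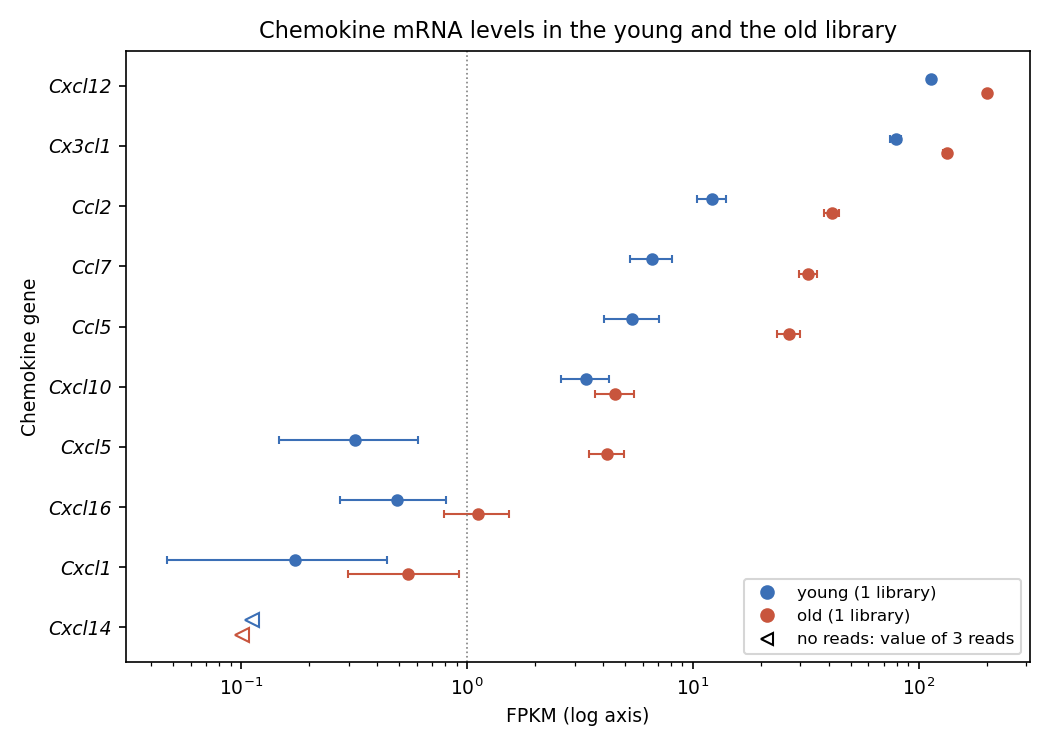
FPKM of the 10 chemokine genes on a log axis in the young (blue) and old (red) library, with 95% Poisson counting intervals; open triangles mark the value of 3 reads for Cxcl14, which had none, and the dotted line is 1 FPKM. The old value is the higher one for all 9 genes with reads, and the intervals of Cxcl10, Cxcl16 and Cxcl1 overlap between libraries.

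**Figure D3:**
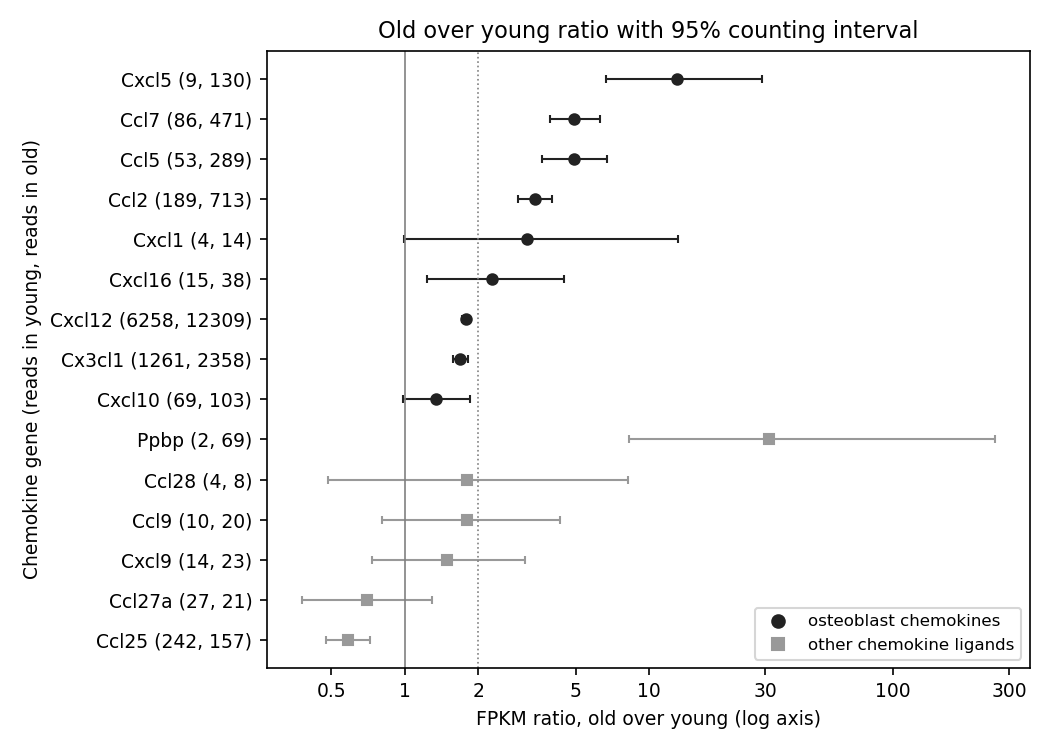
FPKM ratio of old over young on a log axis with 95% counting intervals for chemokine genes with reads in both libraries and more than 10 in all; black circles are the 9 osteoblast chemokines with reads, grey squares other chemokine ligands, and the labels give the reads in young and old. Cxcl5 and Ppbp have the highest ratios and wide intervals, while Ccl25 lies below 1.

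In the young library the order of levels per length was Cxcl12, Cx3cl1, Ccl2, Ccl7, Ccl5, Cxcl10, Cxcl16, Cxcl5, Cxcl1. The neighbours Ccl7 [5.26 to 8.12] and Ccl5 [4.05 to 7.07] were not separable by their counting intervals, nor were Ccl5 and Cxcl10. Cxcl16 overlapped Cxcl5, and Cxcl5 overlapped Cxcl1. In the old library the order was the same down to Cxcl10, then Cxcl5, Cxcl16 and Cxcl1, with overlap between Ccl7 and Ccl5, between Cxcl10 and Cxcl5, and between Cxcl16 and Cxcl1. Summed over the 10 genes, chemokine mRNA was 221 FPKM in young and 445 FPKM in old cells, a ratio of 2.01. Cxcl12 and Cx3cl1 together made up 87.1% of the sum in young and 75.2% in old cells. Ccl2, Ccl7 and Ccl5 together made up 10.9% and 22.5%, from 24.1 and 100.3 FPKM.

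**Figure D4:**
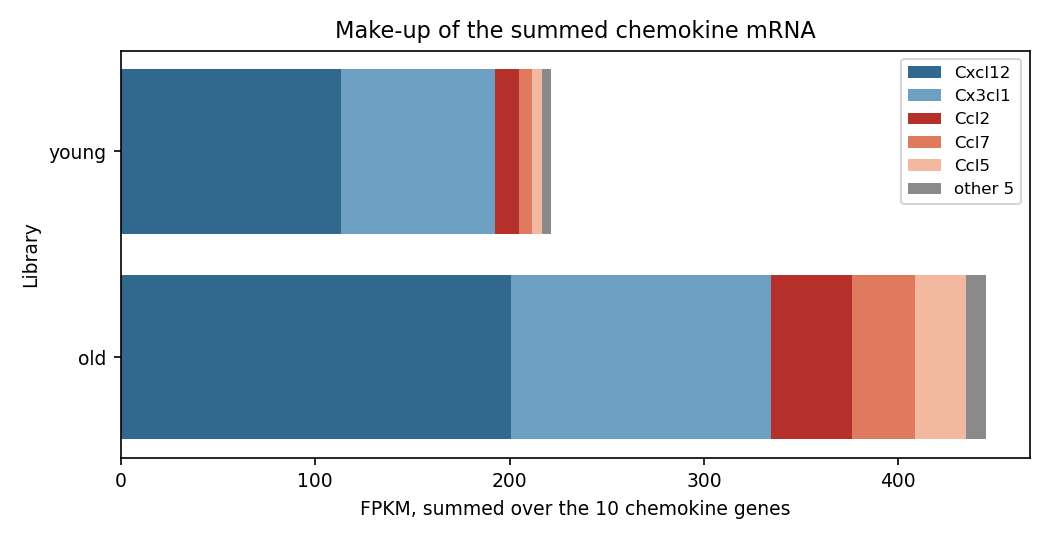
Stacked bars of FPKM summed over the 10 chemokine genes in each library, starting at 0. Cxcl12 and Cx3cl1 form most of both bars, and the Ccl2, Ccl7 and Ccl5 segments grow from 24.1 to 100.3 FPKM.

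Levels set between genes depend on the gene length used, while the ratio of a gene between libraries does not. The deposited values imply the mean length of all annotated transcripts. For Cx3cl1 that is 973 bases over 6 transcripts of 377 to 3315 bases, and for Cxcl12 it is 3383 bases over 4 transcripts of 1878 to 5627 bases. With the longest transcript as length, Cx3cl1 came to 23.3 FPKM in young and 39.3 FPKM [37.7 to 40.9] in old cells. Ccl2 on the same basis came to 10.6 and 35.9 FPKM [33.3 to 38.7]. The level of Cx3cl1 over that of Ccl2 in old cells was 3.25 as deposited and 1.09 with the longest transcripts, and in the young library 6.55 and 2.21. Cxcl12 stayed highest, at 68.1 and 121 FPKM. On this basis Ccl2, Ccl7 and Ccl5 together made up 18.9% of the summed level in young and 35.5% in old cells, and Cxcl12 and Cx3cl1 78.8% and 61.6%. The longest transcript of Ccl2 (1096 bases) is a retained-intron form, and its protein-coding transcript has 813 bases. Those of Ccl5, Cxcl1, Cxcl5 and Cxcl10 are also retained-intron forms, while that of Cx3cl1 is protein-coding. Levels on coding transcripts alone were not computed, so the order of Cx3cl1 and Ccl2 in old cells is not settled.

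Chemokine genes lie in clusters, and the genes called higher were single genes or pairs within them. Apart from Ppbp, none of the other ligands in these clusters was measured, so they could not be called higher. Ccl2 and Ccl7 lie next to each other, 10.1 kb apart by their lower ends. Of the other ligands in that cluster, the eosinophil attractant Ccl11, Ccl12 and Ccl1 had 0 reads in both libraries, and Ccl8 had 0 and 1. Near Ccl5, Ccl9 had 10 and 20 reads, Ccl6 0 and 4, Ccl3 0 and 1, and Ccl4 0 and 2. Next to Cxcl5, 9.2 kb away, Ppbp, a neutrophil-attracting chemokine known from platelets, was at 0.113 FPKM in young and 3.52 FPKM in old cells. Its ratio, from 2 and 69 reads, was 31.1 [8.29 to 262], and it too counted as measured only through the old library. The following genes were at or near 0, with 1 and 4 reads for the platelet gene Pf4, 0 and 1 for Cxcl3, 1 and 1 for Cxcl15, and 1 and 2 for Cxcl2. Around Cxcl10, its fellow Cxcr3 ligand Cxcl9 had 14 and 23 reads. Cxcl11, annotated as a polymorphic pseudogene, had 0 and 9 reads, and the interval of its ratio began at 1.78. Beside Cx3cl1, Ccl22 had 2 and 2 reads and Ccl17 had 3 and 7.

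**Figure D5:**
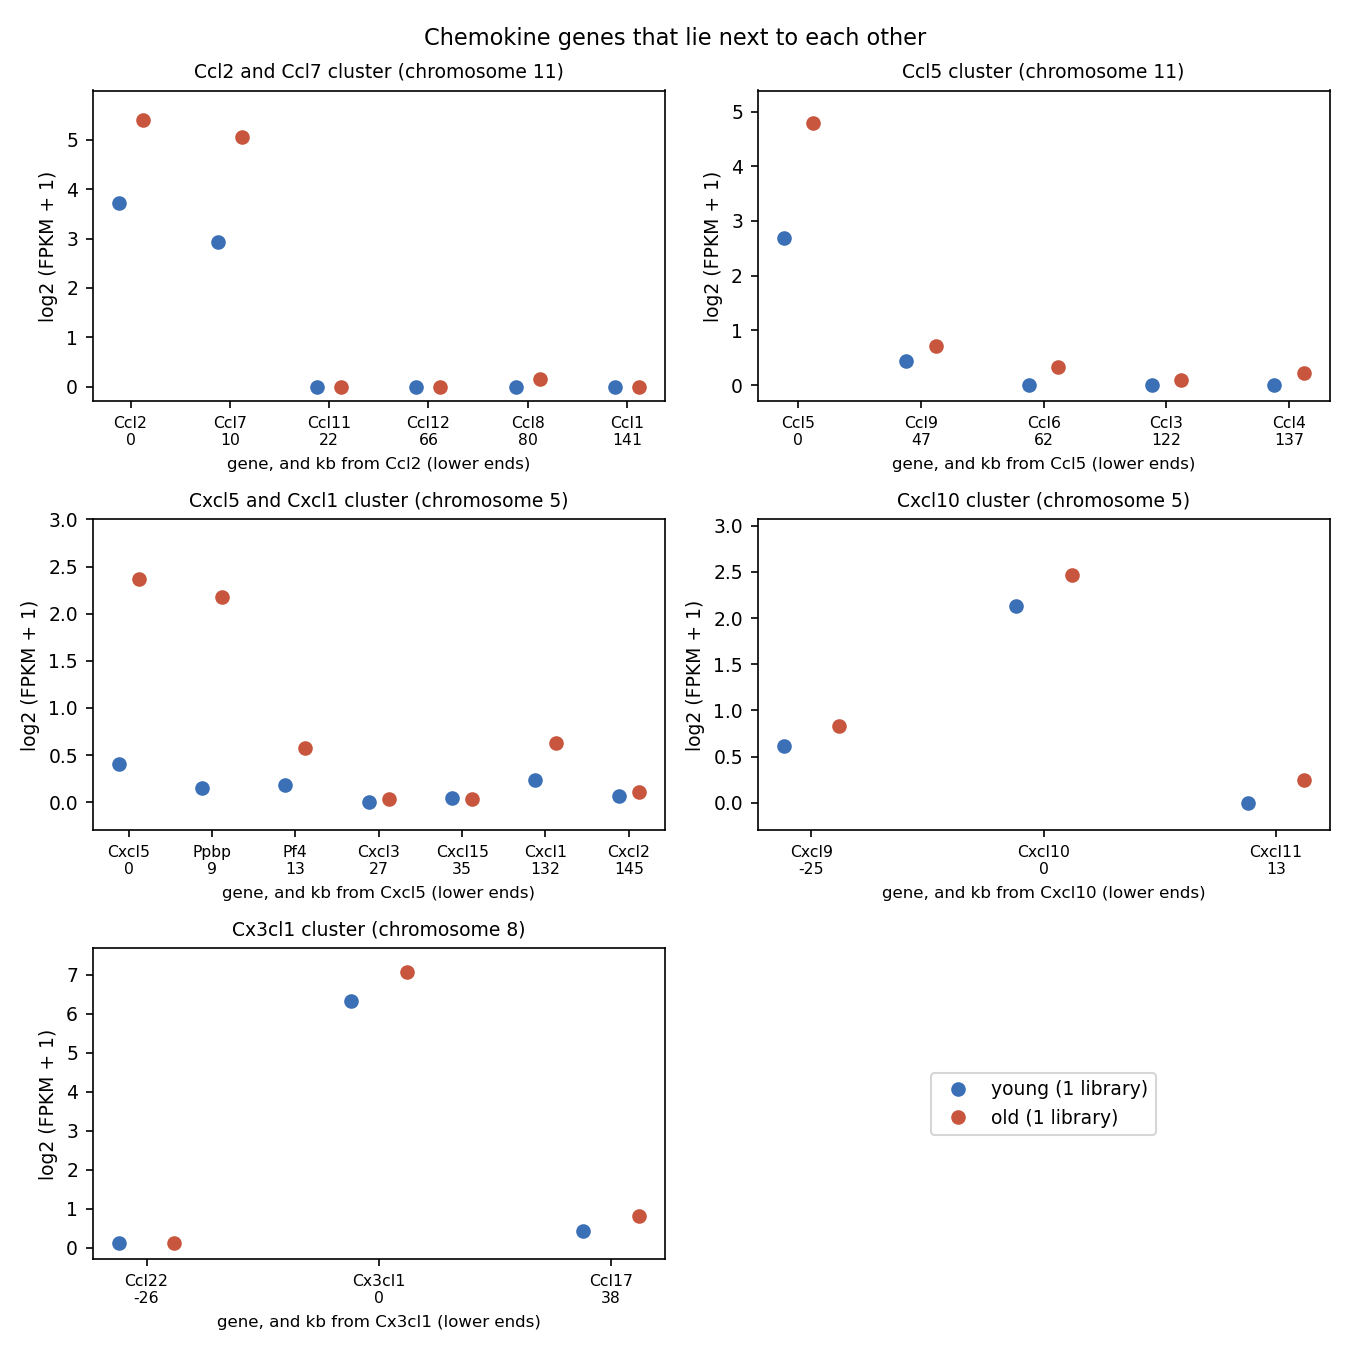
Log2 of FPKM + 1 in the young (blue) and old (red) library for chemokine genes within 500 kb of Ccl2, Ccl5, Cxcl5, Cxcl10 or Cx3cl1, in chromosome order, with the distance in kb between lower ends under each name. Ccl2 with Ccl7, and Cxcl5 with Ppbp, stand out in old cells, while most neighbours stay near 0.

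Of the 28 other chemokine ligands, 11 had no reads, another 11 had 1 to 10 reads over both libraries, and 3 were measured. Besides Ppbp, these were Ccl25, a ligand of Ccr9, at 13.3 and 7.76 FPKM with a log2 ratio of -0.70, and Ccl27a at 2.87 and 2.02 FPKM with -0.36. Ccl25 was thus the measured ligand lower in old cells at 1.5-fold. It shares 2.7% of its exon bases with Elavl1, which was at 33.99 FPKM in young and 33.65 FPKM in old cells. Of the 18 signalling chemokine receptors, none was measured and 12 had no reads, among them Ccr2, Cxcr2, Cxcr3 and Cx3cr1, while Cxcr4 had 1 and 6 reads. Of 5 atypical receptors, which bind chemokines without classical signalling, Ackr3, a Cxcl12 scavenger, was at 1.24 and 3.25 FPKM (log2 ratio 0.93) and Ackr4 at 3.39 and 3.87 FPKM.

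Genes that act on chemokines or their mRNA were examined next. None of the 7 measured shedding and trimming proteases was 2-fold apart, and their median log2 ratio was 0.09. Adam10, which sheds Cx3cl1 and Cxcl16, was at 67.4 and 72.2 FPKM. The matrix metalloproteinases Mmp9 and Mmp14 had 0.80 and 0.13, and cathepsin Ctsk -0.11. Of 8 genes that control the decay or stability of such mRNAs, none was 2-fold apart. Zfp36 (tristetraprolin), which binds AU-rich elements and speeds mRNA decay, had 62.0 and 38.1 FPKM, or -0.69 as a log2 ratio. Its relatives Zfp36l1 and Zfp36l2 had 0.74 and 0.79, and the RNase gene Zc3h12a 0.53. The pentamer ATTTA, the core of AU-rich elements, occurred 7 times in the 3′ UTR of Cxcl1, 5 times in Cxcl5, 4 in Cxcl12, 3 in Cxcl10, 2 each in Ccl7 and Cxcl16, 1 each in Ccl2 and Cx3cl1, and 0 in Ccl5 and Cxcl14. Per kilobase of 3′ UTR that is 11.8 for Cxcl1, 4.60 for Ccl7, 4.50 for Cxcl5, 3.64 for Ccl2, 3.01 for Cxcl10, 1.41 for Cxcl16, 0.771 for Cxcl12, 0.534 for Cx3cl1 and 0 for Ccl5 and Cxcl14, beside a median of 1.36 over 10912 measured genes.

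NF-kB and interferon-linked factors switch many chemokine genes on. Of 14 NF-kB subunits and regulators, all were measured, none was 2-fold apart, and the median log2 ratio was 0.04. The largest differences were those of Bcl3 (6.78 and 12.2 FPKM), Nfkbiz (13.0 and 19.2), Nfkb1 (41.7 and 57.7) and the kinase gene Chuk (76.0 and 58.3). Of 9 measured interferon-linked transcription factors, 1 was 2-fold higher, 4 were 1.5-fold higher, none was lower by 1.5-fold, and the median was 0.39. Over all measured genes the shares are 1.97% at 2-fold higher, 5.52% at 1.5-fold higher and 4.47% at 1.5-fold lower, and they apply to each list given here. Irf7 was at 15.9 and 37.9 FPKM, Stat2 at 61.8 and 104 FPKM and Irf9 at 23.6 and 39.3 FPKM. Of 18 upstream cytokines and receptors, 12 were measured, with a median of 0.17, 1 gene 2-fold higher and none 2-fold lower. Il6 was at 1.25 and 3.64 FPKM on 26 and 84 reads, Tnfrsf1b had a log2 ratio of 0.94, Il1r1 0.65 and Tlr2 0.58. Tnf, Ifng and Il17a had 0 reads in both libraries, and Il1a, Il1b and Ifnb1 at most 2.

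Promoters are shown for the most abundant chemokines and, as a contrast, for Cxcl10. Of the 10 genes, 5 had a promoter in the RefSeq table (GRCm38.p6, 250 bases before to 50 after the start site): Cxcl1, Cxcl10, Cxcl12, Cxcl14 and Cx3cl1. Ccl2, Ccl5, Ccl7, Cxcl5 and Cxcl16 had none. Searched on both strands were TATAAA (in 13.6% of 32851 promoters), the AP-1 site TGANTCA (7.81%), the interferon-response core GAAANNGAA (8.56%) and the NF-kB consensus (8.46%). Matches are in capitals, and matches that overlap run together.
Cxcl10, chr5:92348840-92349139, minus strand: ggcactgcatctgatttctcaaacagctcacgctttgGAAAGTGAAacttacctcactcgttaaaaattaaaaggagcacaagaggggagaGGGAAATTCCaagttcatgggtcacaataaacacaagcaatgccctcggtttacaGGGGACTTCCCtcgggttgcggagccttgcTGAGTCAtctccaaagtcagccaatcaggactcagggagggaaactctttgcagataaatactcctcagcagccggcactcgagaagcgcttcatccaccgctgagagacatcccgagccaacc
Cxcl12, chr6:117168285-117168584, plus strand: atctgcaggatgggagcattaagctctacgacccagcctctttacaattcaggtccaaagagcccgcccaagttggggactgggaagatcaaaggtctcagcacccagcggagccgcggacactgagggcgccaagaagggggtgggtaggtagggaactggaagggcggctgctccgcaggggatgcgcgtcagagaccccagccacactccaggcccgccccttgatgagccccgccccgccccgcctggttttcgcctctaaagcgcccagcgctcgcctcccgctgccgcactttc
Cx3cl1, chr8:94771930-94772229, plus strand: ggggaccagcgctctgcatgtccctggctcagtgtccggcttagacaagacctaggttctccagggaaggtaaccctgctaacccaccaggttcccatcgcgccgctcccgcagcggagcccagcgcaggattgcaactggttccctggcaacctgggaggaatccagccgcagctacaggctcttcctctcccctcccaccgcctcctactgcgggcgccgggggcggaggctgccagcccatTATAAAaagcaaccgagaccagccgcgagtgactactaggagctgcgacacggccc

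In Cxcl10 the capitals are, from left to right, an interferon-response core at -213 to -205, counted from the start site, an NF-kB match at -159 to -150, a pair of overlapping NF-kB matches at -104 to -94 and an AP-1 site at -74 to -68. Cxcl1 held overlapping NF-kB matches at -71 to -61. Cxcl14, which had no reads, held an interferon-response core at -172 to -164. Cxcl12 held none of the 4 motifs and Cx3cl1 a TATAAA at -6 to -1. The windows of Cxcl12 and Cx3cl1 held 20 and 19 CG pairs at 64.7% G and C each, and those of Cxcl10 and Cxcl1 10 each, beside a median of 7 over all promoters. The window of Cxcl14, which had no reads, held 22 at 62.7% G and C. Of all promoters, 73.5% held fewer CG pairs than that of Cxcl12 and 71.9% fewer than that of Cx3cl1. A match is a description of letters and no evidence of binding.

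The label of the cells was checked against marker genes. The osteoblast lineage list was at 20090 FPKM in sum in young and 17080 FPKM in old cells, led by Col1a1 and Col1a2, and Runx2 and Sp7 were present, Sp7 at 55.5 and 28.9 FPKM. In the same list, Alpl (2.78 and 3.28 FPKM) and Bglap (3 and 6 reads) were low. Of its 10 measured genes, 2 were 2-fold higher, Spp1 at 224 and 1732 FPKM and Dmp1 on 17 and 243 reads, and the median was -0.30. Dmp1, at 0.377 and 4.85 FPKM, counted as measured only through the old library. Of 7 marrow stromal genes, which include makers of Cxcl12, 5 were measured with a median of 0.41, Pdgfra at 59.0 and 88.1 FPKM and Kitl at 10.8 and 16.8 FPKM, while Lepr had 10 and 11 reads. In these bulk samples, more cells of a type and more RNA per cell cannot be told apart.

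Since leukocytes, endothelium and platelets also make chemokines, their markers stand beside these values. The 10 monocyte and macrophage genes summed to 39.0 FPKM in young and 40.1 FPKM in old cells, with 4 measured: Lyz2 (21.3 and 18.4), Cd74 (8.63 and 7.94), Cd68 (4.51 and 4.36) and Cd14 (4.49 and 9.15). Ptprc had 1 and 0 reads, Csf1r 1 and 6, and Adgre1 and Itgam 0. None of 7 neutrophil, 7 lymphocyte and 6 endothelial genes was measured, and these lists summed to at most 0.748 FPKM in a library. Of the 4 platelet genes, Itga2b was at 9.37 and 8.05 FPKM, Gp9 had 0 and 1 reads, and Pf4 and Ppbp are given above. The part of other cells in the chemokine differences was not tested.

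Over 2 libraries the likeness of patterns can be given only as closeness in level. Among 10963 other measured protein-coding genes, those nearest to Ccl2 in log2 of FPKM + 1 were Gpnmb (11.1 and 39.6 FPKM, distance 0.13), Eps8 (13.0 and 37.0, distance 0.18) and Apol9b (12.8 and 35.8, distance 0.21). Nearest to Cxcl12 were Shisa5 (113 and 206 FPKM, distance 0.04), Mt2 (120 and 206, distance 0.09) and Cyp51 (124 and 185, distance 0.18).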

How the data were processed

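RNA was sequenced from 1 library of apoptotic osteoblasts per age group. The authors deposited FPKM values. The build mm10 and the tools fastp, STAR, HTSeq and edgeR are named in the submitters' processing notes; their roles, the annotation release, filters and strand setting are not given in those sources. GENCODE M21 (GRCm38) supplied names, coordinates and transcripts and held 55227 of 55487 identifiers. Reads were recovered as FPKM times the rounded mean transcript length times the library total, and 97.6% of values above 0 came out whole within 0.01. No count test was run on them.

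The log2 ratio used a pseudocount of 1 and genes whose mean reached 1 FPKM. Members and gene lists were chosen with earlier results of these data known. All members were named, with up to 4 measured genes per list by absolute log2 ratio, chemokine ligands within 500 kb of a member, and the 3 measured protein-coding genes nearest to Ccl2 and to Cxcl12; further genes were chosen after their values were seen, and 1 gene that the rule names is not reported here. Sequence uniqueness was checked with words of 50 bases: at most 1.5% of a member's words occurred in another gene. Alternatives changed the pseudocount, filter, scaling and gene length. Protein features that had been planned were not analysed here. Python 3.11.15, pandas 2.3.3 and scipy 1.17.1 were used.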

Additional observations from a re-analysis of the deposited data

How the results depend on the processing

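Under the 7 alternative settings of pseudocount, filter and scaling, all 49 log2 ratios of members with reads were above 0. A changed pseudocount or filter cannot alter the sign of a ratio, so only the changes of scaling could have done so. The number at least 2-fold higher was 4 or 3 under the 7 settings. It was 3 with a pseudocount of 5, where Cxcl5 fell under 2-fold, and 3 of 5 with a mean of at least 10 FPKM, where Cxcl5 and Cxcl10 were no longer measured. The median log2 ratio was 0.80 with a pseudocount of 5 and 0.82 with no filter, which takes in Cxcl1 and Cxcl16. The ratio of summed FPKM was 2.11 with the median gene set to even, 2.27 without Cxcl12, and 2.24 with the longest transcript as length, an alternative chosen after seeing the data. That length also moved the joint share of Ccl2, Ccl7 and Ccl5 from 10.9% to 18.9% in young and from 22.5% to 35.5% in old cells. Over all measured genes, 248 were higher and 109 lower at 2-fold, against 408 and 236 with a pseudocount of 0.1, 411 and 237 with none, 101 and 20 with 5, and 106 and 27 with a mean of at least 10 FPKM. No paired analysis was possible because each age has 1 library; for the same reason no replicate could be left out. Depth limits Cxcl1, Cxcl16 and Cxcl14, which have under 40 reads in each library.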
